A study of Mus musculus with 12 samples.

Results

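The genes described here are the 554 genes of mouse chromosome 5 that were expressed in a set of pluripotent cell samples. A gene was taken when its probe set had 1 gene symbol, lay on chromosome 5 in the RefSeq annotation of GRCm38.p6 and had a mean log2 value above 5 over the 12 arrays. The members were thus chosen by their level in all arrays together, and the chromosome itself was selected on the iPSC minus ESC difference described below. Of 1310 chromosome 5 genes with a symbol, 554 passed and 756 did not. Among the 8387 expressed genes of all chromosomes, 554 were on chromosome 5, 346 on chromosome 12 and 7487 elsewhere. By annotation, 532 of the 554 encoded proteins, 6 were long noncoding RNAs, 6 were microRNA genes, 5 were pseudogenes and 5 were transcribed pseudogenes. The 13 chromosome 5 probe sets above the same level that had no platform symbol were left out.

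RNA was profiled on Affymetrix arrays from embryonic stem cells (ESC, derived from the early embryo) and induced pluripotent stem cells (iPSC, made by reprogramming other cells), both female and of C57BL/6 background. Both kinds grew without feeder cells or serum on gelatin in 2iLIF, a medium with 2 kinase inhibitors and the cytokine LIF that holds mouse cells undifferentiated. TMRM, a dye drawn into mitochondria by their membrane potential, was used to sort each kind into a dim (low) and a bright (high) fraction, which gave 4 groups, called ESC low and high and iPSC low and high. Each group held 3 arrays, numbered 2, 3 and 4 in the labels, which do not state how the iPSC were made or whether the arrays of a group came from separate cultures, so p-values measure only how far these arrays differ, and that may be technical variation.

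The arrays were alike in their overall values, with medians of 3.51 to 3.61 log2 units and correlations of 0.991 to 0.994 within groups and 0.986 to 0.994 between groups. Of 10 pluripotency genes, 9 had means above 5 in every group, and Dppa5a was the exception at 3.87 to 4.01. Of 8 fibroblast markers and 6 markers of extraembryonic endoderm, 0 were above 5 in any group. Of 4 measured markers of blood cells, 2 were above 5 in the low groups and 1 in the high groups. Cd68 was at 8.02 to 9.18 and Spi1 at 4.77 to 5.06, while Ptprc, the pan-leukocyte marker, was at 1.56 to 1.82 and Tyrobp at 2.62 to 3.03. Of 5 neural markers, 1 was above 5 (Map2, 5.57 to 5.76).

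A chromosome's genes usually share no function, and the expressed genes of chromosome 5 include the receptor Kit, the replication helicase subunit Mcm7, beta-actin, the drug efflux pumps Abcb1a and Abcb1b, and Oas1a, a member of the interferon-induced Oas gene cluster. Genes that sit on 1 chromosome share its copies, and as general background the amount of RNA from most genes follows the number of template copies in the cell. Cultured pluripotent lines are known to gain and lose whole chromosomes. DNA was not measured in these samples, so the number of copies of chromosome 5 was not tested.

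Promoter sequences are given for 4 genes whose iPSC minus ESC difference lay farthest from that of their neighbours, described further on, so that the most divergent genes on either side can be seen at their start sites. Gusb and Coq2 were far below the chromosome median, and Oas1a and Ppp2r2c were far above it. They were picked after the values were seen, as the lowest pair and the highest pair with a single annotated promoter window. Each window runs 5′ to 3′ from 250 bases before to 50 after the start site, from RefSeq on GRCm38.p6. The window of Gusb is chr5:130003000-130003299 on the minus strand and that of Coq2 is chr5:100674207-100674506 on the minus strand. The window of Oas1a is chr5:120907476-120907775 on the minus strand and that of Ppp2r2c is chr5:36868260-36868559 on the plus strand. Capitals mark matches to 4 motifs searched on both strands.
Gusb: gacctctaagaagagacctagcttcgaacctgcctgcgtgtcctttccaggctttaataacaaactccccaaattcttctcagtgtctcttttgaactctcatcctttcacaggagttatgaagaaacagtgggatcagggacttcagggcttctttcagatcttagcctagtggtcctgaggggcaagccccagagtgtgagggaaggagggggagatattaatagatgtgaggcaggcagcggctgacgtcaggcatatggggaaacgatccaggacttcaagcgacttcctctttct
Coq2: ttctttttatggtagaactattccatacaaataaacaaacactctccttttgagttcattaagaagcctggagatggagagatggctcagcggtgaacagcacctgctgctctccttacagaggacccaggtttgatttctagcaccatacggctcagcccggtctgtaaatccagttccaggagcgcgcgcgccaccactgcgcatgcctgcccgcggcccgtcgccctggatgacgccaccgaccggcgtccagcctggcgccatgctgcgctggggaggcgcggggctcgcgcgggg
Oas1a: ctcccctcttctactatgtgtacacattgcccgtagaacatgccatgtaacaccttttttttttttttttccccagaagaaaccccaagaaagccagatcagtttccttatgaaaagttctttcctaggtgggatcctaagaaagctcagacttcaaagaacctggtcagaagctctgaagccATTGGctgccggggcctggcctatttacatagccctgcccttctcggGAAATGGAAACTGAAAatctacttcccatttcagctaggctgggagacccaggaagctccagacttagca
Ppp2r2c: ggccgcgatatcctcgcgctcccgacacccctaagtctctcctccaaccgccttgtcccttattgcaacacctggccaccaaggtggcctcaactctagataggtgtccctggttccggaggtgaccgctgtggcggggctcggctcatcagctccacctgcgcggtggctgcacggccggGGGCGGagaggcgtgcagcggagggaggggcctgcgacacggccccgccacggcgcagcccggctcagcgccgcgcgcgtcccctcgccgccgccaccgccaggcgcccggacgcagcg

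The first motif was a pair of GAAA repeats set 2 bases apart, the core of the interferon-stimulated response element. The second was CCAAT, bound by the factor NF-Y in many promoters. The third was the GC box, searched as GGGCGG, to which Sp-family factors bind. The fourth was the TATA box, searched as TATAAA. The Oas1a window held 2 overlapping matches to the interferon element, which together form the longer run of capitals, and 1 match to CCAAT on the opposite strand. The Ppp2r2c window held 1 match to GGGCGG, and the windows of Gusb and Coq2 held 0 matches to any of the 4. The 4 windows also differed in CpG dinucleotides, with 3 in Oas1a, 6 in Gusb, 23 in Coq2 and 36 in Ppp2r2c. Windows were available for 469 of the 554 genes, 579 windows in all, with a median of 25 CpG per window. The interferon element was present in 1.73% of those windows, 2.63% of the windows of expressed genes on other chromosomes and 3.44% of all windows. The GC box was present in 71.5%, 66.5% and 35.7% of the same 3 sets. CCAAT was present in 36.6%, 38.9% and 37.4%, and TATAAA in 4.49%, 6.43% and 13.6%. A match describes letters in a window and is not evidence that a factor binds there.

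Chromosome 5 was lower in iPSC than in ESC in every iPSC array. For each array, the difference of each gene from its mean over the 6 ESC arrays was taken, and the median over the 554 genes was set against the median over the 7487 expressed genes of the other chromosomes, chromosome 12 left out. In iPSC low the chromosome 5 medians, net of the other chromosomes, were -0.30, -0.28 and -0.31 log2 units in arrays 2, 3 and 4. In iPSC high they were -0.28, -0.31 and -0.32. These 6 values sat close together, with group means of -0.30 ± 0.01 (SD, n = 3) in iPSC low and -0.30 ± 0.02 in iPSC high.

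The ESC arrays were more spread. Their net medians were 0.01, -0.06 and 0.12 in ESC low, and -0.07, -0.09 and 0.09 in ESC high, with group means of 0.02 ± 0.09 (SD, n = 3) and -0.02 ± 0.10. Each ESC array here is set against a mean it is part of. The 6 iPSC values did not overlap with the 6 ESC values. In single iPSC arrays, 84.5% to 93.3% of the 554 genes lay below their ESC mean, compared with 33.3% to 50.7% of genes on the other chromosomes. These are bulk samples, in which fewer cells carrying a transcript and less RNA per cell cannot be told apart. This cell type contrast is the one by which the chromosome was picked out, so its values are given as a description and support nothing further.

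**Figure D1:**
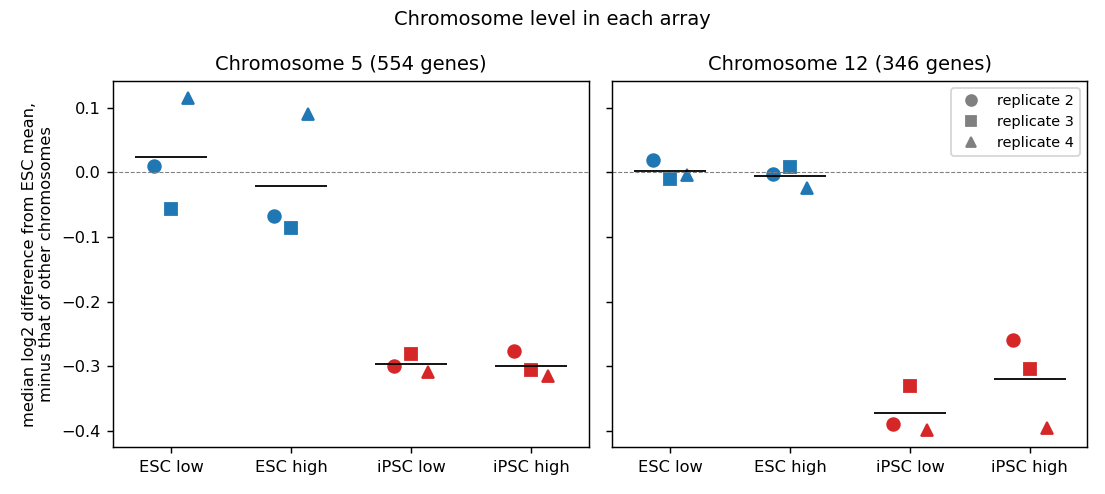
Median log2 difference from the ESC mean over the expressed genes of chromosome 5 (left) and chromosome 12 (right) in each of the 12 arrays, minus the median over the other chromosomes; symbols give the replicate number and bars the group mean of 3 arrays. On chromosome 5 the 6 iPSC arrays lie between -0.32 and -0.28, and the ESC arrays numbered 4 lie above the other ESC arrays.

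Taken gene by gene, with ESC and iPSC compared within each potential fraction and the fractions averaged, the median iPSC minus ESC difference of the 554 genes was -0.27 log2 units, an iPSC to ESC ratio of 0.831. The middle of the distribution was narrow, with quartiles at -0.38 and -0.17 and a median absolute deviation, scaled to an SD, of 0.16. Of the 554 genes, 507 were below 0 and 47 were at or above 0, and 266 lay within 0.1 of the median. The median was -0.26 in the low fraction and -0.27 in the high fraction.

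Only chromosome 12 had a comparable median, -0.32, with 95.1% of its genes below 0, against 91.5% on chromosome 5. The medians of the 18 other chromosomes ran from 0.00 to 0.04, and 36.2% to 49.3% of their genes were below 0. The scaled deviations of chromosome 5, 0.16, and of chromosome 12, 0.15, were both above the 0.10 to 0.13 of those 18 chromosomes.

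All 6 iPSC arrays lay below all 6 ESC arrays for 173 of the 554 genes (31.2%), where the same held for 1.75% of all 25206 probe sets and for 0.735% of expressed genes on chromosomes other than 5 and 12. The opposite order was found for 2 genes, against 1% of all probe sets and 2.2% of those expressed genes. In limma's fit over all probe sets, 175 of the 554 were lower in iPSC at an adjusted p under 0.05 (1.96% of all probe sets) and 2, Ppp2r2c and Oas1a, were higher (0.916%). Nothing is read from these counts, because the contrast served to choose the chromosome. The count of 177 also moved with single arrays, to 107 without array 4 of ESC low, 98 without array 4 of ESC high, 105 and 116 without arrays 2 and 3 of iPSC low, and 110 and 96 without arrays 3 and 4 of iPSC high.

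The lower values ran along the whole chromosome. The 554 genes were put in chromosomal order and divided into 11 blocks of 50, which left 4 genes at the end, Brca2 to Rfc3, with a median of -0.31. The median of the block from Cdk6 to Abcf2, at the start of the gene order, was -0.23, and that of the block from Foxk1 to Fry, at its end, was -0.25. The lowest block median was -0.35, from Dhx15 to Aasdh, and the highest was that of the first block. In between, the block from Smarcd3 to Slbp was at -0.26, Tacc3 to Adgra3 at -0.24, Ppat to Cdc7 at -0.31 and Glmn to Mmab at -0.29. The blocks Mvk to Erp29, Mapkapk5 to Glt1d1, Fzd10 to Cux1 and Mir721 to Gna12 were at -0.28, -0.25, -0.27 and -0.25. In each block 40 to 49 of 50 genes were below 0. The same was seen array by array, since all 66 block medians in the 6 iPSC arrays were below 0, from -0.41 to -0.15. No block of 50 had a median at the ESC level, and shorter stretches varied more. The longest runs of neighbouring expressed genes at or above 0 were 3 genes, from Rundc3b to Abcb1b and from Trmt44 to Sh3tc1. With blocks of 25 genes, the 22 medians ran from -0.40 to -0.16. The highest was that from Tacc3 to Wfs1, where 17 of 25 genes were below 0 and the upper quartile was 0.03.

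**Figure D2:**
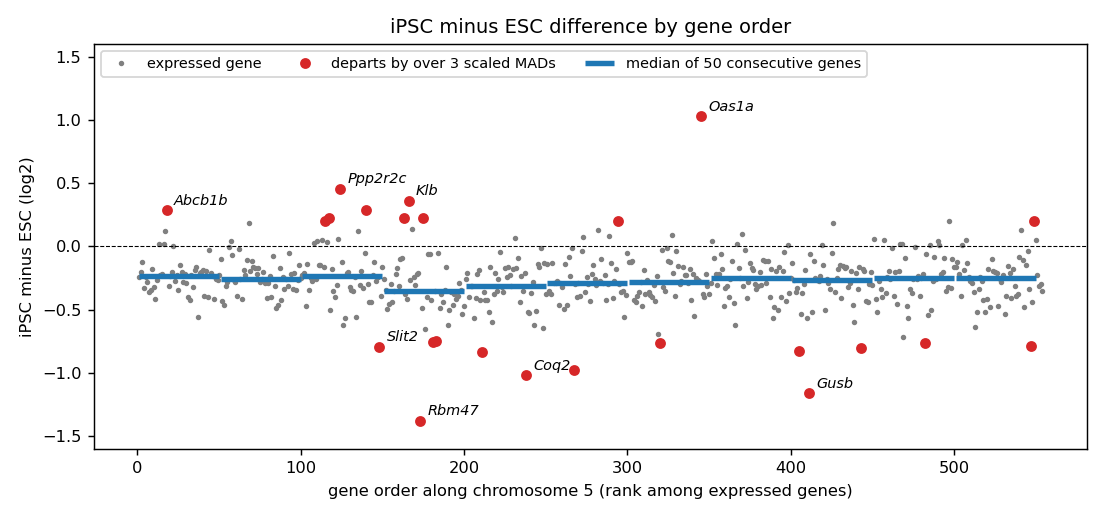
iPSC minus ESC difference (log2) of each of the 554 genes by rank along chromosome 5, with bars for the medians of 50 consecutive genes and red points for genes more than 3 scaled median absolute deviations from the chromosome median. The block medians stay between -0.35 and -0.23 along the chromosome, while red points occur on both sides.

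The difference depended on expression level only at the low end. Median differences were -0.25 at mean log2 values of 5 to 6 (155 genes), -0.27 at 6 to 7 (148), -0.28 at 7 to 8 (131), -0.28 at 8 to 9 (85) and -0.23 above 9 (35). Among the 756 genes at or below 5, the median was -0.03 and 57.5% were below 0. Within those, it went from -0.16 at levels of 4 to 5 (125 genes) to -0.05 at 3 to 4 (178). Just outside the level limit were Prom1, mean 4.986, with a difference of -0.22 ± 0.08 (SE), and Steap2, mean 4.998, with -0.04 ± 0.10. Just inside were Selenoi, mean 5.003, with -0.18 ± 0.09, and Snrnp35, mean 5.004, with -0.11 ± 0.10. The level limit used all 12 arrays, so a gene near it can pass through the cell type in which it is higher. Of the 554 genes, 526 had both cell type means above 5, 26 had only the ESC mean above 5, and 2, Fgfbp1 and Lfng, had only the iPSC mean above 5. The median of the 526 was -0.26.

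Within ESC, chromosome 5 was higher in the 2 arrays numbered 4 than in the other 4, a pattern picked out after the values were seen and given as a description. Array 4 exceeded the mean of arrays 2 and 3, averaged over the fractions, by a median of 0.16 log2 units, and 477 of the 554 genes (86.1%) were above 0. The median was 0.16 in the low fraction and 0.16 in the high fraction. Other chromosomes did not show it in the same arrays. Chromosome 12 was at 0.00, the 18 remaining chromosomes ran from -0.01 to 0.03, and 45.9% to 59.7% of their genes were above 0. In iPSC the same difference for chromosome 5 was 0.01.

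By gene order, the ESC array 4 difference was 0.08 to 0.21 in the 11 blocks of 50. Net of the other chromosomes, the iPSC median was -0.39 relative to the ESC arrays numbered 4 (522 of 554 genes below 0), -0.26 relative to arrays 2 (483 genes) and -0.22 relative to arrays 3 (471 genes). ESC arrays 2 and 3 were closer to each other, at a net 0.04. Leaving out both ESC arrays numbered 4 gave a chromosome median of -0.21, here without subtraction of the other chromosomes, beside -0.27 with all arrays. Whether the ESC arrays differed in their cells was not tested.

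**Figure D3:**
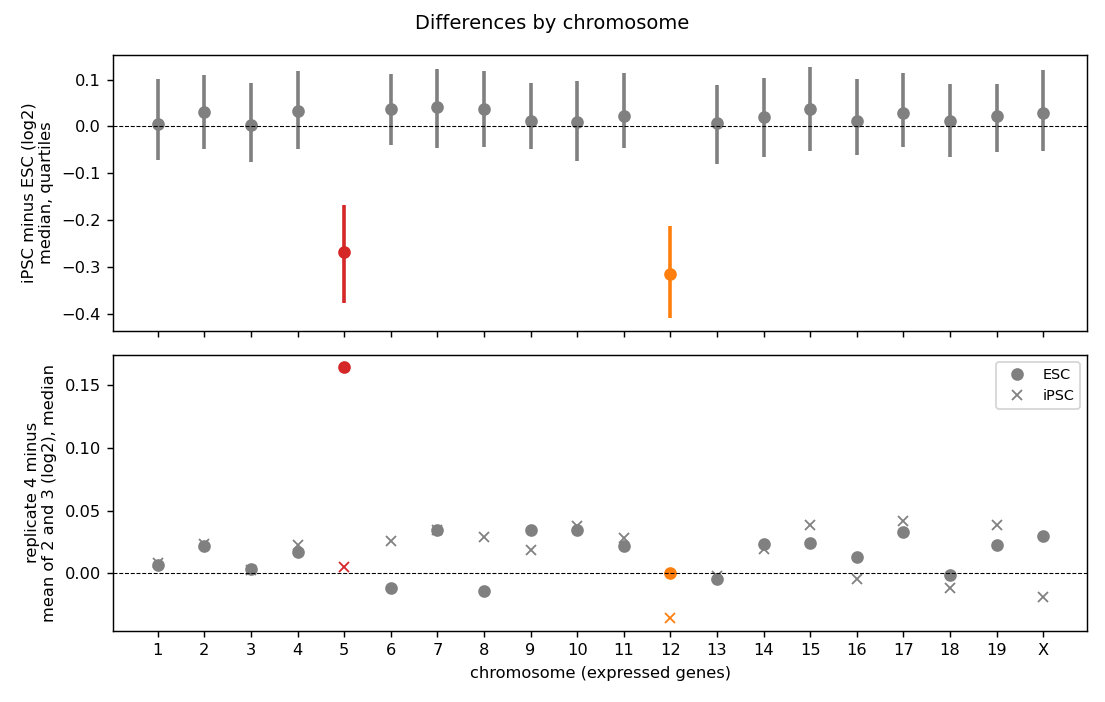
Top, median and quartiles of the iPSC minus ESC difference (log2) over expressed genes of each chromosome; bottom, median difference of arrays numbered 4 from the mean of arrays 2 and 3 in ESC (circles) and iPSC (crosses). Chromosomes 5 and 12 are low in the top panel at -0.27 and -0.32, and only chromosome 5, at 0.16 in ESC, stands apart in the bottom panel.

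A gene was taken to depart from its chromosome when its difference lay over 3 scaled deviations from the median, below -0.73 or above 0.20. By this measure 24 of the 554 departed (4.33%), 13 lower and 11 higher, and 530 did not. By the same distance from their own median, 1.71% of expressed genes on chromosomes other than 5 and 12 departed. The share on chromosome 12 was not taken. Of the 13 lower, 5 (Rbm47, Gusb, Rufy3, Mrps17 and a predicted gene) had only their ESC mean above 5, and of the 11 higher, Fgfbp1 had only its iPSC mean above 5, so these passed the level minimum through the cell type in which they were high. Among the 526 genes with both means above 5, a restriction added after seeing the data, 18 departed (8 lower and 10 higher, 3.42%), beside 1.39% of such genes on the other chromosomes. The 10 farthest genes on each side are described, predicted, clone-named and microRNA genes left out.

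The lowest was Rbm47, an RNA-binding protein of splicing and RNA editing complexes. It measured 5.08, 6.18 and 5.99 in ESC low, 4.93, 6.71 and 6.17 in ESC high, 4.19, 4.43 and 4.62 in iPSC low and 4.67, 4.24 and 4.64 in iPSC high. All iPSC arrays were below all ESC arrays, although both ESC arrays numbered 2 were well under the other ESC arrays. The difference was -1.38 ± 0.27 log2 units (SE), a ratio of 0.384.

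Gusb, the lysosomal beta-glucuronidase long used as a reference gene, measured 5.98, 5.90 and 6.18 in ESC low and 5.97, 5.55 and 5.76 in ESC high. In iPSC it measured 4.67, 5.21 and 4.59 in the low and 4.68, 4.89 and 4.34 in the high fraction. The groups did not overlap, and the difference was -1.16 ± 0.13 (ratio 0.448). Coq2, which attaches the side chain in coenzyme Q synthesis, measured 6.76, 6.69 and 6.36 in ESC low, 6.36, 6.06 and 6.28 in ESC high, 5.50, 5.92 and 5.77 in iPSC low and 4.90, 5.55 and 4.77 in iPSC high. It was below all ESC arrays in every iPSC array, with a difference of -1.02 ± 0.13.

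Other members of the lower set had smaller departures. Rufy3, a protein of neuronal polarity and lysosome transport, measured 5.23 to 5.98 in the ESC arrays (median 5.48) and 4.48 to 4.99 in the iPSC arrays (median 4.66), a difference of -0.84 ± 0.13. Mrps17, a protein of the small mitochondrial ribosomal subunit, measured 5.52 to 6.09 in ESC and 4.72 to 5.15 in iPSC, a difference of -0.83 ± 0.11. In both genes every iPSC array was below every ESC array. Slit2, a secreted axon guidance ligand of Robo receptors, measured 7.43, 7.99 and 8.05 in ESC low, 7.28, 8.18 and 8.11 in ESC high, 6.97, 7.20 and 6.97 in iPSC low and 7.11, 7.09 and 6.94 in iPSC high (difference -0.79 ± 0.15). As in Rbm47, the ESC arrays numbered 2 were the lowest ESC arrays, here still above every iPSC array.

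Uspl1, a SUMO protease, measured 8.44, 8.39 and 8.69 in ESC low, 8.28, 8.31 and 8.69 in ESC high, 7.73, 7.85 and 7.63 in iPSC low and 7.57, 7.67 and 7.61 in iPSC high, a difference of -0.79 ± 0.09. Stag3, a cohesin subunit of meiotic chromosomes, measured 7.53, 7.32 and 7.72 in ESC low, 7.14, 7.22 and 7.42 in ESC high, 6.67, 6.68 and 6.71 in iPSC low and 6.59, 6.35 and 6.79 in iPSC high, a difference of -0.76 ± 0.09. These genes had the smallest errors among the 10, and their ESC and iPSC arrays did not overlap. The small heat shock protein gene Hspb1 (-0.80 ± 0.20) and the secreted phospholipase gene Pla2g1b (-0.76 ± 0.26) overlapped between the cell types. Hspb1 had 1 ESC array at 5.03, within the iPSC range of 4.39 to 5.37, and Pla2g1b spanned 7.61 to 8.77 across the ESC arrays and 6.53 to 8.08 across the iPSC arrays.

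On the other side, Oas1a stood farthest from the chromosome. It encodes an oligoadenylate synthetase, an interferon-induced sensor of double-stranded RNA, and its promoter window above held the interferon element. It measured 4.57, 5.27 and 4.69 in ESC low, 4.99, 5.59 and 4.99 in ESC high, 5.67, 5.83 and 5.85 in iPSC low and 6.08, 6.28 and 6.57 in iPSC high. All iPSC arrays were above all ESC arrays, and the difference was 1.03 ± 0.14 (ratio 2.04). Oas1a has close relatives beside it on the chromosome, and the share of signal from other copies was not tested. Of 29 chromosome 5 genes on a list of interferon and chemokine genes, 2 were expressed, and the other, Trafd1, was at -0.22 ± 0.12, near the chromosome median.

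Ppp2r2c, a regulatory subunit of protein phosphatase 2A, measured 5.70, 5.84 and 5.84 in ESC low, 5.98, 5.79 and 5.64 in ESC high, 6.27, 5.99 and 6.57 in iPSC low and 6.37, 6.00 and 6.35 in iPSC high. The lowest iPSC array, at 5.99, was just above the highest ESC array, at 5.98, and the difference was 0.46 ± 0.11 (ratio 1.37). It and Oas1a were the only genes of the 554 with all iPSC arrays above all ESC arrays.

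The other genes on the higher side were near or little above the ESC level and their arrays overlapped between cell types. Klb, the co-receptor for endocrine fibroblast growth factors, spanned 6.22 to 7.13 across the ESC arrays and 7.002 to 7.38 across the iPSC arrays (0.36 ± 0.15), with both ESC arrays numbered 2 lowest. Abcb1b, a drug efflux transporter, was at 0.29 ± 0.20, which was 0.53 in the low fraction and 0.05 in the high fraction. Fgfbp1, a carrier of fibroblast growth factors, spanned 4.36 to 5.74 across the ESC arrays and 4.97 to 5.62 across the iPSC arrays (0.28 ± 0.18). Uchl1, a ubiquitin hydrolase of neurons and germ cells, spanned 6.45 to 7.43 across the ESC arrays and 6.97 to 7.31 across the iPSC arrays (0.22 ± 0.15). For these 4 genes the errors were 0.15 to 0.20, so their position relative to the ESC level was less settled than that relative to the chromosome.

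Sh3tc1 was at 0.22 ± 0.15 and the tRNA methyltransferase gene Trmt44 at 0.20 ± 0.17. Ssh1, a phosphatase that activates cofilin, spanned 8.73 to 9.12 across the ESC arrays and 9.08 to 9.38 across the iPSC arrays (0.20 ± 0.08). Lfng, a glycosyltransferase that modifies Notch receptors, was at 0.20 ± 0.10, just inside the limit, and so did not depart. On the lower side the genes next to the limit were Guf1, a mitochondrial translation factor (-0.76), and Commd8 (-0.75).

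**Figure D4:**
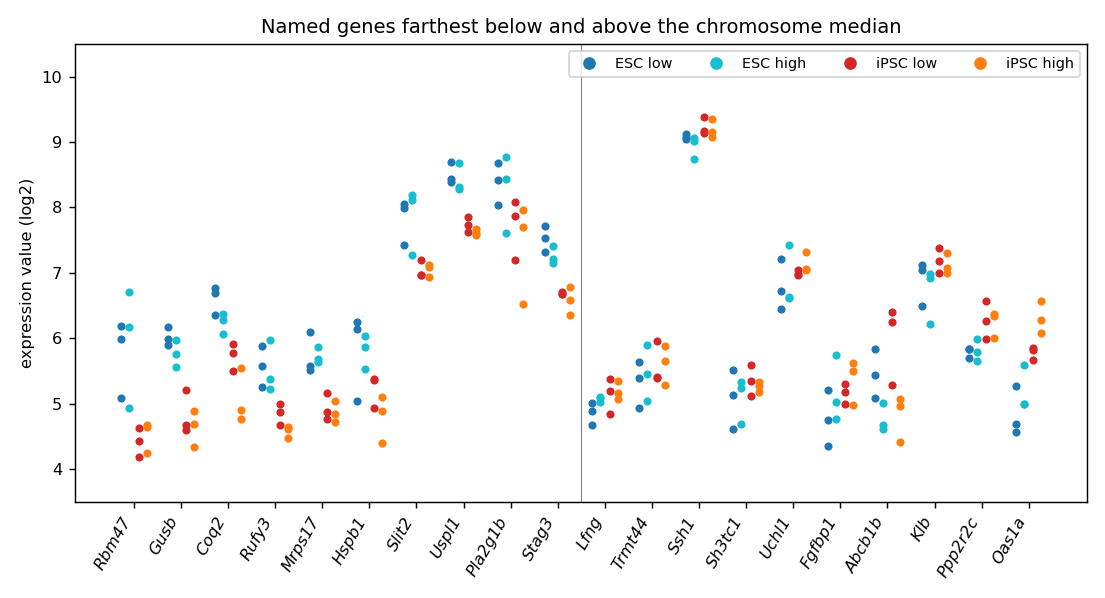
Expression values (log2) in each of the 12 arrays for the named genes farthest below (10, left of the line) and above (10, right) the chromosome 5 median, coloured by group; all but Lfng were past the limit of departure. For Gusb, Coq2 and 6 others on the left the ESC and iPSC arrays do not overlap, and on the right this holds for Oas1a and Ppp2r2c only.

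The expressed genes were also read by function, with 15 lists of chromosome 5 genes that held 199 of the 554. A gene can be in more than 1 list. Some lists also hold genes of other functions, so counts and medians are those of the list as drawn up. In every list except those of ABC transporters and of interferon genes, most members were below the ESC level, and apart from the interferon list the medians lay between -0.39 and -0.05, beside -0.27 over all 554 genes.

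The list of DNA replication and repair genes had a median of -0.36, and 17 of 18 expressed members were below 0. Its lowest member, at -0.56, was Polr2b, an RNA polymerase II subunit that is also on the transcription list. Mcm7, a subunit of the replicative helicase, measured 9.61 to 9.77 in ESC (median 9.66) and 9.38 to 9.46 in iPSC (median 9.42), a difference of -0.26 ± 0.06. Its arrays did not overlap between the cell types. Rfc5, of the clamp loader, was at -0.30, and Babam2, of a BRCA1 complex, at -0.26. Chek2, a DNA damage checkpoint kinase, was the highest of the group at 0.13, with ESC arrays from 6.88 to 7.54 and iPSC arrays from 7.22 to 7.43.

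Of the cell cycle genes, 23 of 23 expressed members were below 0, with a median of -0.24. The cohesin regulator Pds5a was at -0.22, Anapc5 of the anaphase-promoting complex at -0.17, and Cdk8, the Mediator kinase, at -0.41. Chromatin regulators had a median of -0.28, with 17 of 18 below 0. Among them the H4K20 methyltransferase Kmt5a was at -0.29, the remodeler Ep400 at -0.22 and the scaffold Trrap at -0.19. Kdm2b, a CpG island-binding demethylase, was the exception at 0.10. Rest, the repressor of neuronal genes, spanned 8.58 to 8.79 across the ESC arrays and 8.23 to 8.45 across the iPSC arrays and was at -0.31.

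Transcription factors and Mediator subunits had a median of -0.39, and 19 of 19 were below 0. Polr2b, the second largest RNA polymerase II subunit, measured 9.03 to 9.27 in ESC and 8.46 to 8.68 in iPSC without overlap, a difference of -0.56 ± 0.06. Med13l was at -0.29. Tbx3, a transcription factor of the naive pluripotent state, was closer to 0 at -0.18, and its ESC arrays, 9.02 to 9.56, overlapped with its iPSC arrays, 8.98 to 9.32. A list drawn up for receptor tyrosine kinases held 4 expressed genes of 12 on the chromosome, with a median of -0.14. They were Kit, Ephb4, Limk1 and Fgfrl1, of which Limk1 and Fgfrl1 are not receptor tyrosine kinases. Kit, the stem cell factor receptor, measured 9.17 to 9.40 in ESC and 8.82 to 8.998 in iPSC without overlap, a difference of -0.38 ± 0.06. Ephb4, an ephrin receptor, was at -0.02.

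Mitochondrial proteins had a median of -0.30, with 22 of 23 below 0, and 3 of them, Coq2, Mrps17 and Guf1, departed to the lower side. Cox6a1, a cytochrome oxidase subunit, measured 11.06 to 11.22 in ESC and 10.85 to 10.99 in iPSC, a difference of -0.23 ± 0.06. Hadha, of mitochondrial fatty acid oxidation, measured 9.02 to 9.33 in ESC and 8.69 to 8.85 in iPSC, a difference of -0.41 ± 0.07. Both were without overlap. Malate dehydrogenase Mdh2 was at -0.17, the inner membrane protein Mpv17 at -0.20, and aldehyde dehydrogenase Aldh2 at 0.04.

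Other metabolic enzymes had a median of -0.26, with 16 of 19 below 0. The purine synthesis enzymes Ppat and Paics, which are neighbours on the chromosome, were at -0.26 and -0.21, and Cad, of pyrimidine synthesis, at -0.26. The calcium pump gene Atp2a2 was lower at -0.44 ± 0.08. ABC transporters had 4 expressed genes, of which Abcf2 and Abcb8 were at -0.23 and -0.21, while the neighbours Abcb1a, at 0.12 ± 0.11, and Abcb1b, at 0.29 ± 0.20, were not below 0. As close copies, Abcb1a and Abcb1b can share signal between their probe sets, and this was not tested.

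The list of ribosome and translation genes had no ribosomal protein gene among its expressed members. These were Eif2b1, Eif2b4, Eif3b, Eif4h, Eif2ak1, Denr, Sbds, Aimp2 and Zcchc8. All were below 0 (9 of 9, median -0.30), with the initiation factors Eif3b at -0.32 and Eif4h at -0.34. The same held for ribosome biogenesis and RNA helicases (12 of 12, median -0.33), with Lyar at -0.35 and Nop14 at -0.15. The list of RNA-binding and splicing genes, which also held genes of other functions such as Diablo and Rnf34, had a median of -0.18. All of its expressed members, 14 of 14, were below 0. Among them Hnrnpdl was at -0.09 and Hnrnpd at -0.17, and Rbm47 departed to the lower side. Genes of protein folding, transport and turnover had a median of -0.30 (23 of 24 below 0), with Sec31a, of the COPII coat, at -0.24 and the ubiquitin ligase Ube3c at -0.39.

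Cytoskeletal genes had a median of -0.21, with 10 of 11 below 0. Actb, beta-actin, was the member above 0, at 0.05 ± 0.07, with 10.40 to 10.81 in ESC and 10.62 to 10.74 in iPSC. The actin bundler Fscn1 was at -0.13 and Septin11 at -0.36. The list of secreted and adhesion genes, which also held other genes such as Wfs1, Insig1 and Sgsm1, had a median of -0.13. In it 8 of 9 were below 0, among them the departing Slit2, the tight junction gene Cldn4 at -0.36 and Wfs1 at -0.12. Insig1, a sterol sensor of the endoplasmic reticulum, was at -0.01.

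Membrane potential, unlike cell type, played no part in the choice of genes, so the low and high fractions were compared with limma's moderated test over all 25206 probe sets. The 554 genes as a whole were not displaced between fractions by the amount seen between cell types. Their median high minus low difference was -0.05 in ESC, against -0.01 for the rest of the expressed genes, and -0.06 in iPSC, against -0.06. In ESC 35.4% of the 554 genes were above 0 and in iPSC 33.4%, against 48.3% and 32.6% of the rest.

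In ESC, 0 of the 554 genes passed the threshold of adjusted p 0.05 by limma (0.357% of all probe sets passed), 37 were under 0.05 unadjusted, and 0 passed with the replicate number as a block (0.702% of all probe sets). In iPSC, 1 passed, Ung, which fell (0.198% of all probe sets fell, and 0.547% passed in either direction). With the fractions averaged over both cell types, 8 passed: Mepce rose (1.6% of all probe sets rose), and Ung, Slbp, Kmt2e, Slc25a40, Abcb1b, Man2b2 and the clone-named gene 2700038G22Rik fell (0.905% fell). The share of 8 in 554 was 1.44%, below the 2.5% of all probe sets that passed in either direction. The effect of potential did not pass as different between iPSC and ESC for any of the 554 (0 by limma, with or without the block, against 0% of all probe sets without it and 0.00397% with it, and 5 at an unadjusted p under 0.05).

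The labels do not say that the numbers pair the low and high arrays. The blocked fit took them as pairs within a cell type and made more calls. In iPSC it called 3 of the 554 (Ung, Abcb1b and Oas1a, against 0.936% of all probe sets), and for the average it called 16, against 3.73% of all probe sets. The 16 were the 8 above with Oas1a, which rose, and Klhl7, Cnpy1, Tmem128, C330024D21Rik, Coq2, Cdc7 and Fam222a, which fell. These additions were named because the block added them.

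Ung, the uracil-DNA glycosylase that removes uracil from DNA, fell in the high fraction. It measured 8.13, 8.17 and 8.49 in ESC low and 7.96, 7.93 and 7.88 in ESC high. In iPSC it measured 7.93, 8.12 and 8.18 in the low and 7.23, 7.64 and 7.35 in the high fraction. In both cell types every high array was below every low array. The average difference was -0.51 ± 0.09 (limma adjusted p 0.0104), and it passed whichever array was left out. Within iPSC it was -0.67 ± 0.13 (adjusted p 0.0392), and within ESC -0.34 ± 0.13 (0.457). A fit of the iPSC arrays alone did not pass (limma adjusted p 0.0845). The iPSC call was also lost at adjusted p 0.0504 to 0.166 without array 3 of ESC low, array 3 of ESC high, array 3 or 4 of iPSC low, or array 2 or 4 of iPSC high.

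Slc25a40, a carrier of the mitochondrial inner membrane, measured 6.14, 6.62 and 6.19 in ESC low, 5.72, 5.98 and 5.96 in ESC high, 6.28, 6.07 and 6.23 in iPSC low and 5.82, 5.53 and 5.39 in iPSC high. It was lower in all high arrays, by an average of -0.52 ± 0.10 (limma adjusted p 0.0205). Without array 2 of ESC high, array 4 of iPSC low, or array 3 or 4 of iPSC high, the adjusted p was 0.0527 to 0.0558. Slbp, which binds the stem-loop of histone messenger RNAs, measured 8.32, 8.25 and 8.23 in ESC low, 8.04, 7.83 and 8.09 in ESC high, 7.94, 8.08 and 8.15 in iPSC low and 7.64, 7.65 and 7.77 in iPSC high. Its high arrays lay below its low arrays in each cell type, by -0.32 ± 0.07 (adjusted p 0.0267). It was lost at 0.0627 to 0.0699 without array 2 of ESC low, array 3 of ESC high, array 3 or 4 of iPSC low, or array 2 or 3 of iPSC high.

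Kmt2e, a chromatin protein of the KMT2 family, measured 7.90, 7.94 and 8.20 in ESC low, 7.40, 7.65 and 7.80 in ESC high, 7.67, 7.86 and 7.94 in iPSC low and 7.46, 7.50 and 7.33 in iPSC high, a difference of -0.40 ± 0.09 (limma adjusted p 0.0341). Its low and high arrays did not overlap in either cell type. It passed in 4 of the 12 fits that left out 1 array, and the adjusted p was 0.0607 to 0.0889 without array 4 of ESC low, array 2 or 3 of ESC high, array 3 or 4 of iPSC low, or any array of iPSC high. Man2b2, an epididymal-type alpha-mannosidase, measured 6.36, 6.32 and 6.40 in ESC low, 6.24, 6.01 and 6.05 in ESC high, 6.36, 6.47 and 6.48 in iPSC low and 6.06, 6.16 and 6.18 in iPSC high. Its groups did not overlap either, but the difference was small at -0.28 ± 0.06 (adjusted p 0.0368). It passed only without array 2 of ESC high or array 2 of iPSC low, and was at 0.0579 to 0.0998 without any other 1.

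Abcb1b, the efflux transporter, had the largest error of the 7 named genes. It measured 5.09, 5.83 and 5.44 in ESC low, 4.61, 4.67 and 5.01 in ESC high, 6.40, 5.28 and 6.25 in iPSC low and 5.06, 4.41 and 4.97 in iPSC high. Array 3 of iPSC low and of iPSC high was the lowest in its group. The average difference was -0.93 ± 0.20 (limma adjusted p 0.0285), and that in iPSC was -1.17 ± 0.28 (0.0877, or 0.0211 with the replicate block). The average was lost at 0.0526 to 0.0781 without array 3 or 4 of ESC low, array 2 or 3 of ESC high, array 2 or 4 of iPSC low, or array 3 or 4 of iPSC high. Dyes such as TMRM can be substrates of transporters of this family, and its part in the sort was not tested.

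Mepce, which caps the 7SK RNA that holds transcription elongation in check, was the gene that rose. It measured 5.99, 6.28 and 6.57 in ESC low, 6.74, 6.69 and 6.86 in ESC high, 6.38, 6.01 and 6.03 in iPSC low and 6.92, 6.57 and 6.66 in iPSC high. Every high array was above every low array of its cell type, by an average of 0.53 ± 0.11 (limma adjusted p 0.0222). It was lost at 0.0529 to 0.0614 without array 3 or 4 of iPSC low or array 2 of iPSC high.

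By list, 1 of 18 genes of DNA replication and repair (Ung), 1 of 18 chromatin regulators (Kmt2e) and 1 of 4 ABC transporters (Abcb1b) fell on average, and 0 members of the other 12 lists passed. The 23 genes of the mitochondrial list were among those that did not pass, and Slc25a40 was not on that list. Of the departing genes, Abcb1b was the only one past the threshold between fractions without the block. Oas1a was 0.44 ± 0.14 higher in the high fraction on average (limma adjusted p 0.144, and 0.0126 with the replicate block). The total of 8 depended on single arrays. It was 1 without array 4 of iPSC low, 3 without array 3 of ESC high, array 3 of iPSC low, or array 3 or 4 of iPSC high, 4 without array 4 of ESC low, array 2 of ESC high or array 2 of iPSC high, and 5 without array 2 of ESC low.

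**Figure D5:**
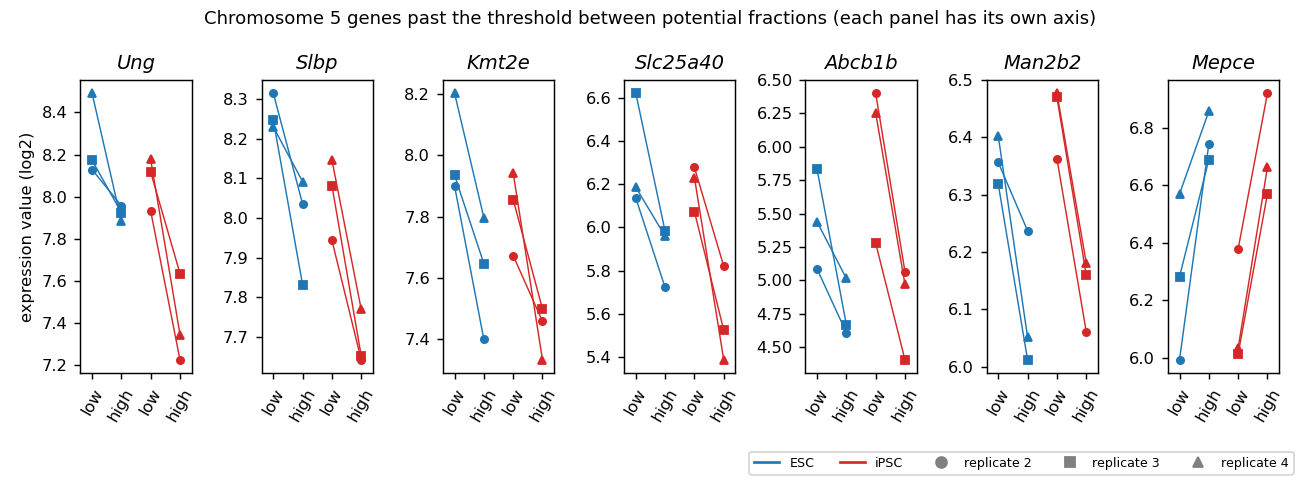
Expression values (log2) in the low and high potential fractions for the 7 named chromosome 5 genes past the threshold on average, with lines joining arrays of equal number in ESC (blue) and iPSC (red). The high array is below the low array of equal number in every pair for the first 6 genes and above it for Mepce.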

How the data were processed

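The authors deposited log2 expression values of 25206 probe sets in each of 12 arrays. RMA, run with affy 1.36.1 under R 2.15.1 per the submitters' processing notes, subtracts background, quantile-normalizes the arrays as a set and gives 1 log2 value per probe set. The build behind the probe sets is not given in the sources used here. Quantile normalization sets all arrays to nearly the same distribution, so differences are relative to the rest of the genes, and values carry no detection calls. The number of arrays limits the precision.

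Symbols came from the platform annotation for 23185 probe sets, and 23182 were placed on a chromosome by gene number in RefSeq's GRCm38.p6, used for names, order and promoters only. The chromosome, the level minimum, the lists and the named genes were chosen with earlier results of these data known. Genes were named as the 10 farthest departures on each side and the genes past the threshold between fractions, leaving out predicted, clone-named and small RNA genes. In each list, genes were named from the up to 4 members of highest mean level, and some of those were left out of the text. Further list members were named to show what their lists held. The first and last genes of blocks and those next to the level minimum were also named. Other genes (Chek2, Kdm2b, Aldh2, Guf1, Commd8, Rundc3b and those added by the block) were named after their values were seen.

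Tests used limma 3.58.1 in R 4.3.3, with 1 mean per group over 12 arrays and Benjamini-Hochberg adjustment over all 25206 probe sets at 0.05. Errors of differences are SE of that fit, which takes all arrays as independent. Those of iPSC minus ESC are therefore too small if the numbers pair the fractions. Residuals of the low and high array that share a number had correlations of 0.34, 0.23 and 0.28 for ESC and 0.11, 0.13 and 0.21 for iPSC. The highest correlation between arrays of different cell types was 0.17, for array 2 of ESC high and array 3 of iPSC high. The pairing was thus less clear in iPSC. The numbers were taken to pair the fractions, an inference from the data. Simulated data of 25206 probe sets held 66 or 67 changes of each size, all in probe sets with means above 5. Their noise was independent between arrays, unlike the residuals above. For the average of the fractions, 74.6%, 95.5% and 100% of changes of 0.5, 1 and 2 log2 units were recovered, and 5 unchanged probe sets were called. For high minus low within ESC and within iPSC, 52.2% and 53.7% of changes of 0.5 were recovered, and 11 and 5 unchanged probe sets were called. Alternatives covered centring, level minimum, filter, variance trend, block and each array left out. Figures used matplotlib 3.10.9 in Python 3.11.15.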

Additional observations from a re-analysis of the deposited data

How the results depend on the processing

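The median iPSC minus ESC difference of chromosome 5, -0.27, was -0.12 with no level minimum and -0.29 to -0.24 with single arrays left out. The 24 departing genes became 11 at 3.5 scaled deviations, 12 among genes above a mean of 6, and 16 to 24 with single arrays left out. Without subtraction of the other chromosomes, the levels of iPSC low arrays 2, 3 and 4 were -0.26, -0.24 and -0.23. That of iPSC high array 3 was -0.31. With arrays centred on the other chromosomes, here with chromosome 12 among them, these levels were -0.29, -0.28, -0.32 and -0.29. For high minus low potential in iPSC, the count of 1 was 3 with the replicate block, 0 from the iPSC arrays alone and 0 to 1 with single arrays left out. For the average, the count of 8 was 16 with the replicate block, 13 with a variance trend, 14 with probe sets of mean 5 or less left out, and 1 to 12 with single arrays left out. In ESC, and for the difference of the effects, it was 0 with each array left out. The 177 calls between the cell types became 276 with that filter and 96 to 159 with single arrays left out. With the replicate number as a random block they became 120. The causes of these changes were not tested, beyond the fewer arrays or probe sets each one uses. Between the fractions, the replicate block changed no other call among the named genes beside those given with the results. No result reversed. The 20 named genes farthest from the chromosome median, Lfng included, stayed on their side of it in all 300 alternative values. They were chosen as the farthest by the same values, so this was largely set by the choice and nothing is read from it. Leaving out both ESC arrays numbered 4, requiring both cell type means above 5, and adding probe sets without a symbol, were chosen after seeing the data.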
